A study of Mus musculus with 3 samples.

Results

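The set named constitutive proteasome subunits was chosen by symbol alone. Besides subunits of the proteasome it holds 3 chaperones that assemble it and 4 activators that bind it. All are called subunit genes here. Protein-coding genes named Psma1 to Psma7, Psmb1 to Psmb7, Psmc1 to Psmc6, Psmd1 to Psmd14 or Psme1 to Psme4 were taken, and the rule uses no measured value. All 38 such genes were found among 37646 listed genes, of which 18730 were protein-coding. Each of the 38 also passed the filter on low counts, together with 11478 genes in all. They fell into 14 core genes, 6 ATPase genes, 8 lid genes, 4 activator genes and 6 other Psmd genes.

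Messenger RNA was counted in 3 splenic lymphomas of pBIC mice on the C57BL/6 strain, 1 library for each tumour, and these libraries make up 1 group. The labels call the model an ABC-DLBCL lymphoma, that is, diffuse large B cell lymphoma of the activated B cell type. All tumours share 1 genotype. The p53 and Blimp1 genes are floxed (p53F/F, Blimp1F/F), an IKK2ca allele is preceded by a floxed stop (IKK2castopF/stopF), and Cre is carried on 1 allele of Cg1 (Cg1Cre/+), so that recombination depends on the cells in which that locus is active. B220+GFP+ cells were sorted from spleens after exclusion of dead cells. Normal B cells named in the series' design were not analysed here, so every comparison below is between genes within a tumour or between tumours. The labels give no treatment, time or age, and do not say that the animals were unrelated. A p-value therefore measures only the spread between these samples.

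The proteasome degrades proteins tagged with ubiquitin. Its core particle is a barrel of outer alpha rings and inner beta rings, and the proteolytic sites sit on 3 of the beta subunits. A regulatory particle caps the barrel: its base holds a ring of ATPases that unfold the substrate, and its lid carries the enzyme that removes ubiquitin. Activators of the Psme family bind the same barrel ends without ATPases. In B cells, interferon-inducible beta subunits can replace the constitutive catalytic ones to form the immunoproteasome, which supplies peptides for antigen presentation.

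Library depth was even, with 15022902 to 15141009 counts and 20504 to 21549 genes detected. The B cell markers reported here (Ms4a1, Cd79a, Cd79b, Pax5 and Cd22) all reached at least 1 CPM (counts scaled to the library total) in every tumour, 5 of 5. Their summed level was 3022, 1599.6 and 1652 CPM in tumours 1, 2 and 3, highest in tumour 1. Ms4a1, Cd79a, Cd79b and Pax5 were each highest there, while Cd22 was highest in tumour 3, at 659, 307 and 671 CPM. The plasma cell list (Sdc1, Jchain and Xbp1) summed to 132, 548 and 299 CPM. That order came from Jchain, at 36.3, 396 and 236 CPM, while Xbp1 was lowest in tumour 3 at 95.6, 151 and 62.0 CPM and Sdc1 stayed between 0.33 and 0.47 CPM. Lists for other cells were lower. T cell genes summed to 17.5 to 40.5 CPM with 5 of 6 at 1 CPM or more in every tumour, macrophage genes to 8.36 to 64.8 CPM with 2 of 5, neutrophil genes to 2.32 to 46.1 CPM with 0 of 5, and erythroid genes to 5.22 to 113 CPM with 2 of 4. No marker was at 0 counts in all tumours, and the part of these lists in the results below was not tested.

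One feature of the sequences bears on how these genes can be counted. Many subunit genes have processed pseudogenes, copies of the spliced transcript elsewhere in the genome, and a read of 50 nt that matches a copy equally well may be lost or shared. Whether such reads were kept is not given in the sources used here. Psmb5, the chymotrypsin-like catalytic subunit, shows how close a copy can be. The gene lies on the minus strand of chromosome 14, at 54614119 to 54618022 (GRCm38, the assembly also called mm10), and the copy Gm3375 on the plus strand of chromosome 7, at 3181093 to 3181888. Their longest identical stretch within the Psmb5 coding sequence ran for 194 bases. The 55 bases below come from that coding sequence and its copy, and the capital marks the 1 difference, C41A, with positions counted from 1 at the 5′ end of the window.
Psmb5: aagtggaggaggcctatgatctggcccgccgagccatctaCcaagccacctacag
Gm3375: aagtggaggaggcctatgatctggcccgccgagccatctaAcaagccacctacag
A read that covers position 41 can be placed, and a read within the identical stretch cannot. Over the coding transcript, 57.1% of all 50-base positions of Psmb5 recurred in another annotated gene, while 17 of the 38 members shared none. Gm3375 itself received 1, 7 and 5 counts in tumours 1, 2 and 3.

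The members together took 89648 of the counts in tumour 1, 132967 in tumour 2 and 120272 in tumour 3. That is 0.592% (95% exact Clopper-Pearson interval 0.588 to 0.596), 0.885% (0.880 to 0.890) and 0.798% (0.793 to 0.802) of each library, or 0.758% ± 0.150 (SD, n = 3). Tumours 2 and 3 exceeded tumour 1 by 1.49 and 1.35 times, and the intervals do not overlap. They cover counting error only and not the spread between tumours, since each tumour has 1 library and its reads are taken as independent. The libraries hold no molecular identifiers, so repeated reads of 1 molecule could not be set aside. In bulk libraries, fewer cells that express a gene and less RNA per cell cannot be told apart.

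Levels of different genes are compared below as TPM, the usual length-corrected level, which is the count divided by gene length and scaled to the same sum in each library. The length is that of all annotated exons of the gene merged (the union exon length), unless the coding transcript is named. Differences between tumours are given in CPM or log2(CPM + 0.5).

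In the alpha ring, which forms the gate through which substrates enter, Psma6 had the highest level at 463, 728 and 629 TPM in tumours 1, 2 and 3, a mean of 607 ± 134 (SD, n = 3). Psma3 had the lowest at 25.7, 38.1 and 31.2 TPM, 31.7 ± 6.19. Both were lowest in tumour 1 and highest in tumour 2. The other 5 alpha genes had means of 104 to 332 TPM. On coding transcript length Psma7 was highest in place of Psma6, at means of 764 and 492 TPM. On union exon length the 7 alpha genes thus spanned 19.2-fold in mean TPM, although the assembled ring holds each subunit in equal number. Part of the Psma3 transcript recurs elsewhere: 22.0% of its 50-base positions were shared, most with the pseudogene Gm13835, which received 44, 88 and 43 counts. Psma7, on the minus strand of chromosome 2 at 180036374 to 180042433, had 223, 450 and 356 CPM. No position of Psma7 was shared, and its tumours differed by 2.02 times between the lowest, tumour 1, and the highest, tumour 2.

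Among the beta subunits without a catalytic site, Psmb2 was highest at 537, 918 and 745 TPM (733 ± 191, SD, n = 3) and Psmb3 lowest at 80.3, 124 and 149 TPM (118 ± 34.8). Psmb1 and Psmb4 lay between them, at means of 246 and 472 TPM. Psmb2 peaked in tumour 2, Psmb3 in tumour 3, and both were lowest in tumour 1. In CPM, Psmb3 had 57.7, 100.2 and 115, the third largest ratio of highest to lowest among the members. Of its positions 55.8% were shared, the most with the pseudogene AC114990.1.

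The 3 constitutive catalytic subunits had a lower median level than the other beta subunits in each tumour: 97.3, 180 and 158 TPM against 265, 411 and 402 TPM. On coding transcript length the medians were 186, 306 and 265 TPM against 365, 552 and 544 TPM. With the count divided by positions found in no other annotated gene, they were 259, 426 and 369 TPM against 381, 593 and 647 TPM. The order thus held, and its size rested on the scale. On union exon length the single genes were as follows. Psmb5 had 97.3, 180 and 158 TPM (145 ± 42.6, SD, n = 3). Psmb6, the caspase-like subunit, had 208, 340 and 323 TPM (290 ± 71.9). Psmb7, the trypsin-like subunit, had 91.4, 152 and 131 TPM (125 ± 31.0). All 3 were lowest in tumour 1 and highest in tumour 2. Psmb5 had the largest ratio between tumours of any member, 2.07, at 27.3, 56.5 and 47.6 CPM. For Psmb7, 28.1% of positions were shared, all with its neighbour Nek6 on the opposite strand, whose 691, 1409 and 1137 counts were also lowest in tumour 1. Without knowing whether strand was used in counting, reads from these neighbours cannot be told apart where they overlap.

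**Figure D1:**
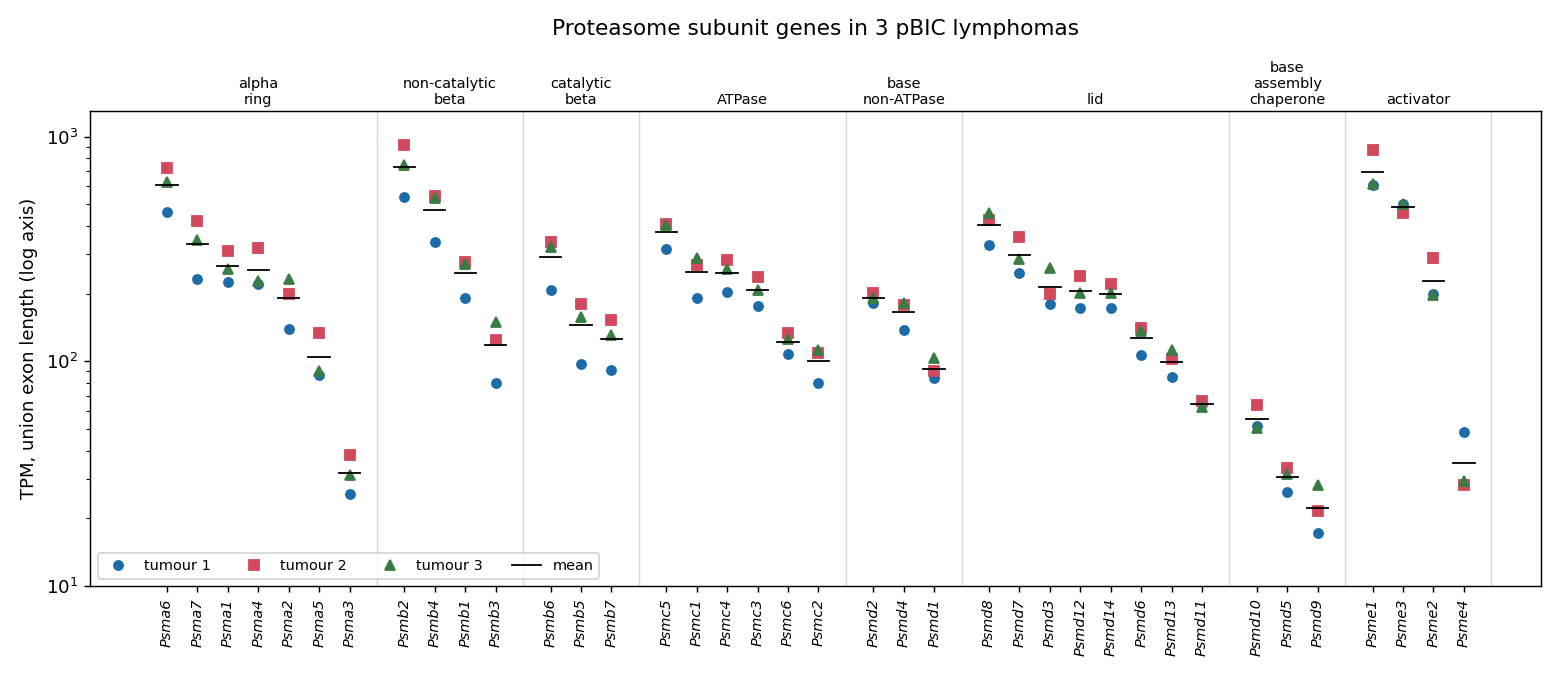
TPM from union exon length (log axis) of the 38 proteasome subunit genes in tumours 1, 2 and 3, grouped by role, with a bar at the mean of the 3 tumours. Psmb2 (733 TPM) and Psme1 (697 TPM) had the highest means and Psmd9 (22.3 TPM) the lowest; tumour 1 lies below the other tumours for most genes and above them for Psme4.

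The 6 ATPase genes, whose products form 1 ring and drive unfolding, lay closest together of the 4 groups. Their mean TPM spanned 3.73-fold, against 23.2-fold in the core, 6.25-fold in the lid and 19.8-fold in the activators. Roles of 3 genes each spanned less: 2.07-fold in the other base subunits, 2.32-fold in the catalytic beta subunits and 2.48-fold in the chaperones that assemble the base. Psmc5 was the highest ATPase gene at 315, 407 and 406 TPM (376 ± 52.8, SD, n = 3). Psmc2 was the lowest at 80.2, 109 and 112 TPM (101 ± 17.7). The other 4 had means of 122 to 249 TPM. On coding transcript length the lowest gene was Psmc6 at 131 TPM, with Psmc2 at 194 TPM. The ATPase span was then 2.08-fold, and in CPM it was 1.27-fold. Each ATPase gene was lowest in tumour 1, and tumours 2 and 3 lay close together for both genes named.

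In the rest of the base, Psmd2, a large scaffold subunit that docks ubiquitin receptors, had 182, 201 and 191 TPM (191 ± 9.48, SD, n = 3). Psmd1, the other large scaffold, had 83.8, 90.02 and 104 TPM (92.5 ± 10.1). Psmd4, a ubiquitin receptor, had a mean of 166 TPM. On coding transcript length Psmd4 exceeded Psmd2, at means of 251 and 179 TPM. The scaffolds differed little between tumours: the ratio of highest to lowest CPM was 1.24 for Psmd2, the third smallest of all members, with 229, 284 and 259 CPM. In Psmd2, 26.4% of positions were shared, the most with Gm5422. The chaperones that assemble the base, and are absent from the finished particle, had lower levels than the base subunits on both lengths. Psmd10 (gankyrin) had 51.4, 63.5 and 50.6 TPM (55.2 ± 7.25), and Psmd9 had 17.1, 21.5 and 28.2 TPM (22.3 ± 5.58). Psmd5 lay between, at 30.4 TPM. On coding transcript length the 3 chaperones lay at 34.2 to 42.6 TPM, with Psmd9 highest. The median of the 3 chaperones was 26.2, 33.5 and 31.5 TPM, against 138, 179 and 182 TPM for the 3 base subunits.

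In the lid, Psmd8 was highest at 330, 425 and 455 TPM (403 ± 65.4, SD, n = 3) and Psmd11, a scaffold that clamps the lid to the core, lowest at 64.5, 66.8 and 62.2 TPM (64.5 ± 2.31). The other 6 lid genes had means of 99.5 to 296 TPM. Psmd8 was lowest in tumour 1, while Psmd11 was almost level. In CPM, Psmd11 had 129, 149 and 134 and a ratio of 1.16, the second smallest of the members. Psmd14, the enzyme that cuts ubiquitin from the substrate, had 153, 218 and 191 CPM, again lowest in tumour 1.

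The activators shared no single pattern. Psme1 and Psme2 encode the partners of the interferon-inducible PA28 ring. Psme1 had 607, 871 and 613 TPM (697 ± 150, SD, n = 3), and Psme2 had 198, 287 and 196 TPM (227 ± 52.0). Both peaked in tumour 2, with tumours 1 and 3 nearly equal. Of the Psme2 positions 59.3% were shared with its near-identical copy Psme2b, which received 98, 76 and 57 counts, so the level of Psme2 is uncertain. Psme3, the nuclear member of the family, lies on the plus strand of chromosome 11 at 101316213 to 101323537. It had 464, 473 and 499 CPM, the smallest ratio of any member at 1.08, and 503, 458 and 503 TPM (488 ± 26.1). Psme4 encodes PA200, a single large activator linked to histone degradation, and lies on the same chromosome and strand at 30771726 to 30880361. It had 127, 82.4 and 82.1 CPM, or 48.6, 28.1 and 29.1 TPM (35.3 ± 11.5). Psme4 was highest in tumour 1, by 1.54 times over tumour 2, and was the single member with that order.

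The 4 groups were then compared within each tumour. The median level of the core genes was 199, 293 and 245 TPM in tumours 1, 2 and 3, of the ATPase genes 184, 252 and 233, of the lid genes 173, 210 and 202, and of the activators 351, 373 and 350. All 4 group medians lay far above the median of all genes tested, at 24.3, 19.3 and 21.7 TPM. Core exceeded ATPase by 0.12, 0.21 and 0.08 on the log2(TPM + 1) scale, 0.14 ± 0.07 (SD, n = 3), and exceeded lid by 0.20, 0.47 and 0.28, 0.32 ± 0.14. Core minus activator was -0.66, -0.31 and -0.36, a mean of -0.44 ± 0.19. ATPase minus lid was 0.09, 0.26 and 0.20, 0.18 ± 0.09. Each difference kept its sign in all 3 tumours.

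The order rested on the length used. With coding transcript lengths, core exceeded ATPase by 0.89 and lid by 0.80, and now also exceeded the activators, by 0.24 ± 0.18 (SD, n = 3), while ATPase minus lid turned to -0.09 ± 0.13. On group medians, only core above ATPase and core above lid held for both lengths in all tumours. As a mean over genes on union exon length, core minus ATPase was -0.005, 0.23 and 0.10 in tumours 1, 2 and 3. Core minus lid was then 0.11, 0.44 and 0.30. The activator median itself joins unlike genes, since Psme1 exceeded Psme4 by 19.8 times in mean TPM.

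Shared sequence moved with the level of the core genes. The 6 core genes with at least 20% of positions shared (Psma3, Psma4, Psma5, Psmb3, Psmb5 and Psmb7) had coding transcript levels of 29.7 to 355 TPM with a median of 171 TPM. The 8 others had 165 to 764 TPM with a median of 479 TPM. When the count was instead divided by the positions found in no other annotated gene, which assumes that no shared read was counted, the first median became 291 TPM and the second 486 TPM. That rise is built into the division, and its assumption was not tested. Without the members that share at least 20%, core exceeded ATPase by 0.48 and lid by 0.66 on the union exon scale.

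**Figure D2:**
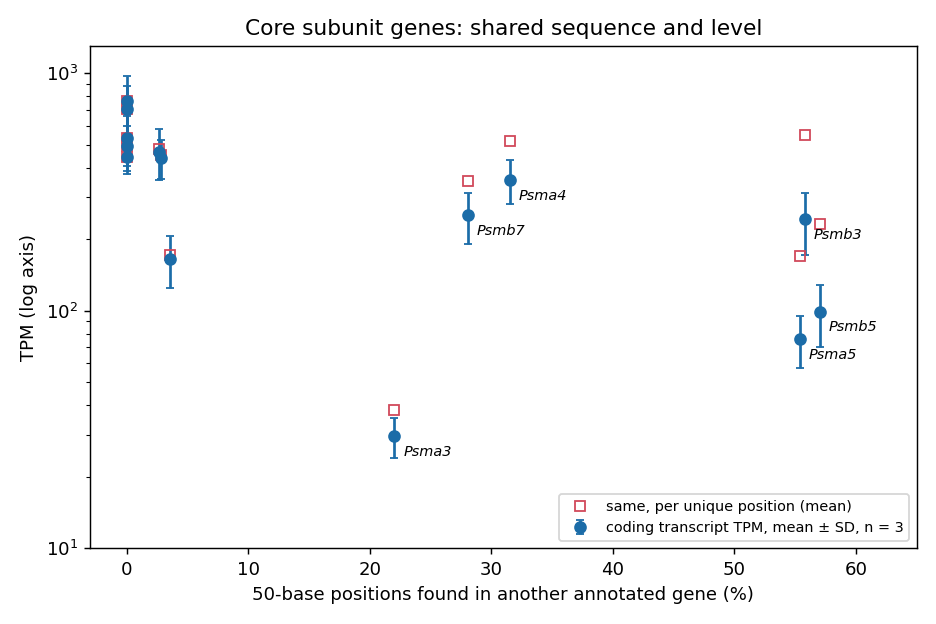
Coding transcript TPM of the 14 core genes (filled circles, mean ± SD over 3 tumours, log axis) against the percent of 50-base positions found in another annotated gene. Open squares give the mean per unique position; the 5 core genes without sharing lie at 0% on the x axis, and the 6 named genes share 22.0% to 57.1%.

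Between tumours, the subunit genes were set apart by tumour 1. In 37 of 38 members, CPM was lowest in tumour 1 (29.6% of all genes tested), the exception being Psme4. The count was the same with TMM and with DESeq2 size factors, and 35 once the trend with transcript length and GC content was removed in each library (36.8% of all genes tested), when Psme1 and Psme2 were lowest in tumour 3. The highest CPM was in tumour 2 for 28 members (30.2% of all genes tested), in tumour 3 for 9 (34.5%) and in tumour 1 for 1 (35.4%). With TMM, 32 were highest in tumour 2 (35.9% of all genes tested) and 5 in tumour 3 (31.7%). With the trend on length and GC content removed, 22 were highest in tumour 2 (37.6% of all genes tested) and 15 in tumour 3 (37.2%). In CPM, tumour 2 exceeded tumour 3 in 29 of 38 members (46.2% of all genes tested).

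The median member deviated from its own mean over tumours by -0.34, 0.25 and 0.09 in tumours 1, 2 and 3 on the log2(CPM + 0.5) scale. The median of all genes tested deviated by 0.03, -0.05 and 0.03. In CPM, tumour 1 thus lay lowest for the median subunit gene and not for the median of all genes tested. With the trend on length and GC content removed, the members deviated by -0.295, 0.18 and 0.12. The median of all genes tested was then also lowest in tumour 1, at -0.05, 0.03 and 0.02.

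The variability test gave no call. For each gene it sets the spread over the 3 tumours against that of genes at a similar level, with edgeR quasi-likelihood statistics and Benjamini-Hochberg adjustment over all genes tested. Of 38 members, 0 passed an adjusted p of 0.05, against 16 of 11478 genes tested (0.139%). At an unadjusted p under 0.05 the count was also 0 members, against 720 genes (6.27%), and with DESeq2 size factors in place of TMM 0 members passed either threshold. The smallest member p in the edgeR test was that of Psma7 at 0.117, adjusted p 0.960. A ratio of at least 1.5 between the highest and lowest tumour was reached by 25 of 38 members (61.0% of all genes tested). No subunit gene was thus called on its own, while 37 of 38 shared the same lowest tumour.

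The size of the difference varied between the groups. Tumour 2 exceeded tumour 1 by a median of 0.80 in the 14 core genes, 0.60 in the ATPases, 0.52 in the lid, 0.48 in the other Psmd genes and 0.36 in the activators, on the log2(CPM + 0.5) scale. Tumour 3 exceeded tumour 1 by 0.62, 0.46, 0.39, 0.39 and 0.10 in the same groups. The medians over all genes tested were -0.09 and -0.004. All 14 core genes reached a ratio of 1.5, against 4 of 6 ATPases, 3 of 8 lid genes, 1 of 6 other Psmd genes and 3 of 4 activators (61.0% of all genes tested). Among those activators Psme4 took the opposite direction, so these counts do not follow the order of the medians.

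**Figure D3:**
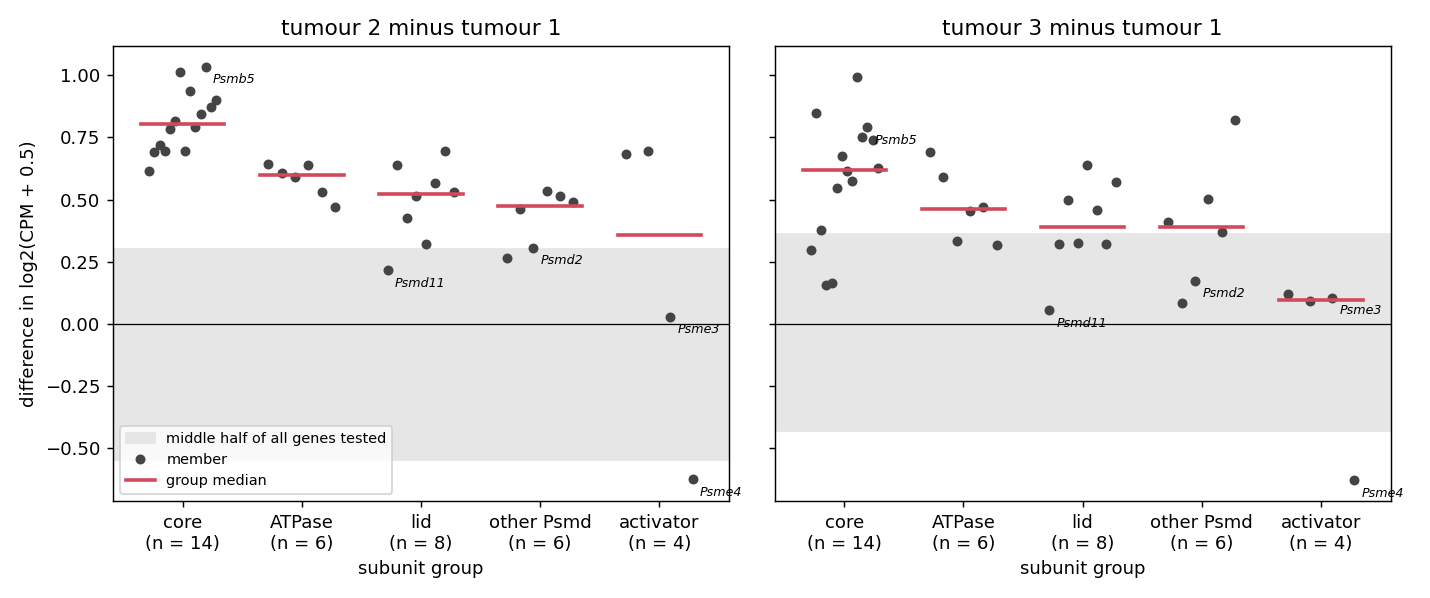
Difference in log2(CPM + 0.5) of tumour 2 (left) and tumour 3 (right) from tumour 1 for each member, by group, with the group median as a red line and the interquartile range of all genes tested in grey. Core genes lie highest, with medians of 0.80 and 0.62, and Psme4 lies below 0 in both panels.

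Transcript length moved with the same contrast. Of all protein-coding genes tested, 70.4% of those with a coding transcript under 1000 nt were lowest in tumour 1, then 52.5% from 1000 to below 2000 nt, 27.7% from 2000 to below 4000 nt and 9.42% at 4000 nt and over. The groups differ in length: the median coding transcript was 1162.5 nt in the core, 1688 nt in the ATPases, 1742.5 nt in the lid and 1888 nt in the activators, and Psme4 has 6491 nt. Within these length classes, 6 of 6, 21 of 21, 9 of 9 and 1 of 2 members were lowest in tumour 1. The members so exceeded the share of their class in each one, by a single gene in the last.

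After removal of the trend with length and GC content, the median difference of tumour 2 from tumour 1 was 0.62 in the core, 0.52 in the ATPases, 0.40 in the lid, 0.44 in the other Psmd genes and 0.28 in the activators. For tumour 3 it was 0.52, 0.46, 0.40, 0.44 and -0.07. The core stayed first in both, and every group median but that of the activators in tumour 3 stayed above 0. The difference of Psme4 moved with the trend: that of tumour 2 from tumour 1 went from -0.62 to -0.06, and of tumour 3 from -0.63 to -0.26. What produced the trend with length was not tested.

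**Figure D4:**
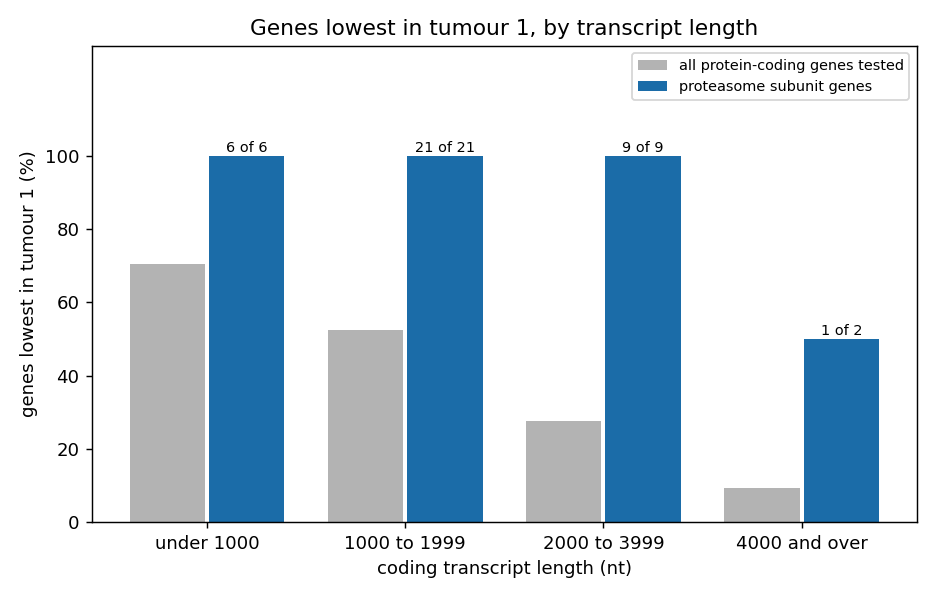
Percent of genes with their lowest CPM in tumour 1, by coding transcript length, for all protein-coding genes tested (grey) and for the proteasome subunit genes (blue, with counts above the bars). The grey bars drop from 70.4% to 9.42% with length, and the blue bars stand above them in every class.

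The constitutive catalytic subunits were set beside the interferon-inducible subunits that replace them. Psmb8, the counterpart of Psmb5, had 269, 457 and 382 TPM, Psmb9, that of Psmb6, had 258, 401 and 222 TPM, and Psmb10, that of Psmb7, had 373, 570 and 474 TPM. Psmb5 minus Psmb8 was -1.46, -1.34 and -1.27 on the log2(TPM + 1) scale, a mean of -1.36 ± 0.09 (SD, n = 3), that is 2.56-fold lower. Psmb7 minus Psmb10 was -2.02, -1.90 and -1.84, a mean of -1.92 ± 0.09, or 3.78-fold lower. Both constitutive subunits were below their counterpart in 3 of 3 tumours, with a two-sided exact sign-flip permutation p of 0.25, the smallest that 3 tumours allow, and 0.375 after Benjamini-Hochberg adjustment over the 3 pairs. Psmb6 minus Psmb9 was -0.31, -0.24 and 0.54, so that the sign differed between tumours (exact permutation p = 1). Without division by length it was -1.27, -1.20 and -0.42, with 1 sign in all tumours (exact permutation p = 0.25). The size for Psmb7 rests on its length: on coding transcript length the difference was -0.74, and per unique position -0.27. For Psmb5 the same settings gave -2.41 and -1.28.

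The thymus-specific Psmb11 and the testis-specific Psma8 were near or at 0. Psmb11 reached 0.07, 0 and 0.20 CPM and Psma8 had no counts, and a count of 0 allows up to 3 counts, 0.198 to 0.200 CPM.

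Genes that work with the subunits were then read in the same way. All 5 further genes of the particle (Adrm1, Sem1, Uchl5, Usp14 and Psmf1) and all 5 assembly chaperones of the core (Pomp and Psmg1 to Psmg4) were lowest in tumour 1 (29.6% of all genes tested), and remained so with the trend on length and GC content removed. On union exon length Uchl5, a deubiquitinase, had the highest level of its list at 124, 160 and 165 TPM. Adrm1, a ubiquitin receptor, had the lowest at 22.4, 23.9 and 36.7 TPM. Of the Adrm1 positions 78.0% were shared, the most with Gm9774, so its level is uncertain. On coding transcript length Psmf1 was lowest, at a mean of 45.9 TPM against 55.0 TPM for Adrm1. Per unique position Adrm1 was highest, at a mean of 250 TPM against 177 TPM for Uchl5. Psmg4 led the assembly genes on union exon length at 166, 254 and 287 TPM (Pomp led on coding transcript length), and Psmg3 was lowest at 13.9, 21.8 and 20.7 TPM. Among regulators of proteasome genes, 2 of 5 were lowest in tumour 1 and 3 of 5 highest there (29.6% and 35.4% of all genes tested). With the trend removed, 2 of 5 were lowest and 2 of 5 highest there (36.8% and 25.2% of all genes tested). The regulators also have longer coding transcripts, at 2351 to 3614 nt, than the assembly genes, at 555 to 1579 nt. Nfe2l1, the transcription factor that raises proteasome genes when the proteasome is inhibited, had 92.1, 65.8 and 73.8 TPM, and Ngly1, which deglycosylates its product, had 13.1, 13.0 and 15.1 TPM. Of 9 ubiquitin and shuttle genes, 4 were lowest and 0 highest in tumour 1, and 7 were lowest there with the trend removed (36.8% of all genes tested). Uba1, the main ubiquitin-activating enzyme, was nearly level at 355, 354 and 320 TPM, and Ubqln2, a shuttle factor, was the most uneven at 15.3, 6.08 and 30.7 TPM. In the edgeR variability test no gene of these lists passed an adjusted p of 0.05 (0.139% of all genes tested). An unadjusted p under 0.05 was reached by 1, Ubqln2 (0.018, adjusted 0.613), against 6.27% of all genes tested.

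The members' promoters were read for 5 short motifs on both strands, in windows of 250 bases before to 50 after the gene start (RefSeq, GRCm38.p6). A window was found for 32 of 38 members. TGACNNNGC, the antioxidant response core bound by Nfe2l1 and Nfe2l2, was in 6 of these (18.8%), against 13.99% of 27025 genes with a window. CCAAT was in 12 (37.5% against 41.1%), CACGTG in 3 (9.38% against 8.09%), GAAANNGAA, the interferon response core, in 6 (18.8% against 9.76%) and GGGANTTTC, an NF-κB core, in 1 (3.13% against 1.29%). With so few members, these shares are a description, and a match is not a binding site. The bases before the start that lie in no annotated exon are shown for the member with the largest ratio between tumours, Psmb5 (chr14:54618023-54618245, minus strand), the one with the smallest, Psme3 (chr11:101315963-101316212, plus strand), and the one with the opposite order, Psme4 (chr11:30771525-30771725, plus strand), with motif matches in capitals.
Psmb5: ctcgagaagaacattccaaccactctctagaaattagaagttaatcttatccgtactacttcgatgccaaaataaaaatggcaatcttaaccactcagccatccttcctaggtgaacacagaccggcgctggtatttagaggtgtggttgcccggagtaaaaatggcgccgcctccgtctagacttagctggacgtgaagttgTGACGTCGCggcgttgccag
Psme3: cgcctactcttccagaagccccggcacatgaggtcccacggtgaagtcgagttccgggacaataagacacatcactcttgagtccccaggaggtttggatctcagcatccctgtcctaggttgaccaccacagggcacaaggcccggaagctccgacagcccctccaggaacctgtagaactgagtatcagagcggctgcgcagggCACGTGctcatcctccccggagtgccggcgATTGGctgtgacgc
Psme4: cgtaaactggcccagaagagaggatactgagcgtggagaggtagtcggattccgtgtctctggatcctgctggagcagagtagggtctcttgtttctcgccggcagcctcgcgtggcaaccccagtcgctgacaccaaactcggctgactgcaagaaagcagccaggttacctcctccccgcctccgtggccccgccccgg
Psmb5 held TGACNNNGC with its match beginning 47 bases before the start. Psme3 held CACGTG 44 bases and CCAAT, read on the other strand, 14 bases before the start. The bases shown for Psme4 held none of the 5 motifs, and its full window held TGACNNNGC outside them.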

How the data were processed

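The values are raw counts of reads per gene in 1 file for each tumour, as deposited by the authors. The tools listed per the submitters' processing notes were FastQC, STAR 2.5.2b and featureCounts 1.6.0, with build mm10. Not given in the sources used here were their settings, the use of strand, the treatment of reads with several matches, and the annotation release. Libraries were made from oligo-dT selected RNA and read as single 50-nt reads, per the labels' protocols.

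The members' rule uses symbols alone, but the members and lists were chosen with earlier results of these data known. Lengths and positions came from GENCODE M21, in which 37536 of 37646 identifiers were found. CPM used library totals, and pseudocounts were 0.5 for CPM and 1 for TPM. The variability test was an intercept-only edgeR 4.0.16 fit (R 4.3.3) with TMM factors on the 11478 genes that passed filterByExpr; its residual deviance was tested against the prior variance, with Benjamini-Hochberg adjustment and a threshold of 0.05. It was tested on simulated data, with changes larger than any member's ratio between tumours. Its power at ratios of the members' size was not tested. DESeq2 1.42.0 gave other size factors. Sign-flip tests used Python 3.11.15.

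With 1 group no contrast could be fitted. Tumours were numbered in accession order, which pairs nothing. Named genes were the catalytic and activator members, the highest and lowest TPM in each role, the 3 largest and 3 smallest ratios between tumours, the smallest p, and the highest and lowest of each related list. Psmd14, Nek6 and the pseudogenes were added after their values were seen. The planned reading of protein sequences was not run, and proteins were not analysed here. 1 planned B cell marker is not reported here.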

Additional observations from a re-analysis of the deposited data

How the results depend on the processing

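With 3 tumours of 1 group and no normal B cells analysed, the data give order and spread and no contrast, and 50-nt reads limit every member with a close copy. No paired analysis was possible because all samples belong to 1 group. Settings on shared sequence, on related lists, on the trend with length and GC content, and on other scaling of the count lowest in tumour 1 were chosen after seeing the data. In each pair of group or gene values, differences are on the log2(TPM + 1) scale.

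Genes varying between tumours numbered 16 in the edgeR test. The count was 0 with library totals only, 0 with a mean count of at least 10, 164 with no filter beyond 1 count, 7 with the trend removed, and 0 to 11 with 1 tumour left out (0 without tumour 1, 0 without tumour 2, 11 without tumour 3); fewer samples enter those fits, and for the other settings the cause was not tested. Members called stayed at 0 under every setting run.

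Core minus ATPase, 0.14 as reported, was 0.89 on coding length, 0.33 without division by length, 0.99 per unique position and 0.48 without members sharing at least 20%. Core minus lid, 0.32, became 0.80 on coding length, 1.04 per unique position, 0.66 without sharing members and 0.74 against all 14 Psmd genes. Core minus activator, -0.44, reversed to 0.24 on coding length and was -0.23 without length, -0.10 as a mean over genes, -0.15 per unique position, -0.67 without sharing members and -0.69 against Psme1 and Psme2 only. ATPase minus lid, 0.18, reversed to -0.095 on coding length and -0.11 without length, and was 0.046 per unique position and 0.61 against all 14 Psmd genes. With 1 tumour left out the 4 differences ran from 0.10 to 0.16, 0.24 to 0.38, -0.51 to -0.33 and 0.14 to 0.23.

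Psmb6 minus Psmb9 ran from -0.27 to 0.15 with 1 tumour left out, and reversed to 0.15 without tumour 1 and 0.11 without tumour 2. The share of counts taken by the members ran from 0.695% to 0.841%. Psmb5 minus Psmb8 and Psmb7 minus Psmb10 kept their direction under the settings on length, but not their size. No setting could bring a pair under a p of 0.05, since 3 tumours allow no exact sign-flip permutation p below 0.25. Psmb5 minus Psmb8, -1.36 as reported, was -2.41 on coding length and -3.24 without length. Without length, Psmb6 minus Psmb9 went from -0.003, with signs that differed between tumours, to -0.97, with 1 sign in all tumours. Psmb7 minus Psmb10, -1.92, was -0.74 on coding length, -0.92 without length and -0.27 per unique position. Ubiquitin and shuttle genes lowest in tumour 1 went from 4 to 7 with the trend removed. Members highest in tumour 3 went from 9 to 5 with TMM and to 15 with the trend removed. Apart from the values given above with their settings, the others moved by no more than the SD between tumours, or for counts by no more than 1.5 times.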
